A study of Mus musculus with 6 samples.

Results

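The genes described here encode proteins that coat, build and remodel lipid droplets, together with a channel for glycerol: the perilipin genes Plin1, Plin2, Plin3, Plin4 and Plin5, the CIDE genes Cidea and Cidec, the seipin gene Bscl2, the FIT2 gene Fitm2 and the aquaglyceroporin gene Aqp7. They were chosen by symbol, and all 10 were found among the 17128 genes of the count table. Counts came from RNA sequencing of about 20000 sorted femur cells per library at postnatal day 21. The 3 control libraries held GFP+ cells of Cxcl12(GFP/fl); R26R(tdTomato/+) mice, and the 3 CXCL12-deficient libraries, labelled ∆CXCL12, held GFP+tdTomato+ cells of Cxcl12(GFP/fl); Col2a1-cre; R26R(tdTomato/+) mice. Every library therefore came from mice with 1 GFP knock-in allele and 1 floxed allele of Cxcl12, the chemokine gene that defines these marrow stromal cells. Only the ∆CXCL12 libraries carried the cre transgene, which is driven by Col2a1, a gene of cartilage and of early skeletal precursors, and only they were gated on tdTomato, so genotype and sorting gate cannot be told apart. The labels do not say whether each library came from its own animal, so the p-values speak of the spread among libraries, which may be technical.

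A lipid droplet is a core of triglyceride and sterol ester inside a single layer of phospholipid. Seipin marks the places in the endoplasmic reticulum where droplets form and works with the protein promethin (gene Tmem159), while FIT2 helps new droplets to bud. Perilipins coat the surface and govern the access of lipases: PLIN2 and PLIN3 occur in most cells, PLIN1 and PLIN4 are typical of fat cells, and PLIN5 of oxidative tissues. CIDEC and CIDEA pass lipid from smaller to larger droplets, and AQP7 lets glycerol out of fat cells after lipolysis and is also found in capillary endothelium. CXCL12-abundant reticular cells, the main CXCL12 source of marrow, express several genes of fat cell precursors.

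Of the 10 genes, Aqp7 and Bscl2 were called higher in the ∆CXCL12 libraries and 0 lower (adjusted p below 0.05, edgeR). Over all genes tested the shares were 0.639% higher and 3.94% lower. The calls of Aqp7 and Bscl2 each held in 1 of 6 refits that left out a library. Neither held with the stromal scaling described below. The promoter windows of both are shown here with those of Plin4 and Cidec, the remaining members whose groups did not overlap. The starts of these 4 genes can thus be compared. Of all genes tested, 11.7% were higher in ∆CXCL12 libraries without overlap. Plin4 and Cidec passed the filter on low counts only through the group in which they were high. Each window runs from 250 bases before to 50 bases from the RefSeq transcription start on GRCm38.p6, is written 5′ to 3′ on the gene's strand, and has matches to the motifs named after it in capitals. The windows are chr4:41048087-41048386 (minus strand) for Aqp7, chr19:8837217-8837516 (plus) for Bscl2, chr17:56109733-56110032 (minus) for Plin4 and chr6:113435711-113436010 (minus) for Cidec.
Aqp7: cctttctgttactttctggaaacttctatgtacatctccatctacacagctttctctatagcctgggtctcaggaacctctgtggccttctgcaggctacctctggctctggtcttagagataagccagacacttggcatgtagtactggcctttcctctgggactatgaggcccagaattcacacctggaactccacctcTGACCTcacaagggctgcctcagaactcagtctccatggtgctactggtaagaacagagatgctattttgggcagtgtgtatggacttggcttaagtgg
Bscl2: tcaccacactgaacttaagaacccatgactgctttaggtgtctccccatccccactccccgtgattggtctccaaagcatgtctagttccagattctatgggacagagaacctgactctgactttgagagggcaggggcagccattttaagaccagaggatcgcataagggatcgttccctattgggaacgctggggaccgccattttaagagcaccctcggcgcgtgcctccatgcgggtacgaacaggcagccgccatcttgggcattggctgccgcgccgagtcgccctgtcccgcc
Plin4: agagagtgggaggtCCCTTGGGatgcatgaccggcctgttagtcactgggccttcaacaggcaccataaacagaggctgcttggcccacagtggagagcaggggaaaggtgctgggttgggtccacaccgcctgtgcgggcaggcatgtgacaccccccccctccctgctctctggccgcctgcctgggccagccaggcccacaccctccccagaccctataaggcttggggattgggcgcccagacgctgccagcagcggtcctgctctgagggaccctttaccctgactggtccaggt
Cidec: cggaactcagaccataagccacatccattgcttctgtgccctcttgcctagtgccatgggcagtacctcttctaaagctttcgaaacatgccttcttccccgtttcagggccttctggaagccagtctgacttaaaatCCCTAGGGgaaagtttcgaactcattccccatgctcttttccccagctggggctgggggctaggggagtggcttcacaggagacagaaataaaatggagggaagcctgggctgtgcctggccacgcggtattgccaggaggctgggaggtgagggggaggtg

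Motifs were searched on both strands in these windows and in those of the other members in the RefSeq table, 9 of the 10 genes in all. The palindrome CCCNNGGG, the core of the site bound by EBF transcription factors, was found in the windows of Plin1, Plin4 and Cidec, 3 of 9, beside 13.7% of all 32851 windows. Its first base lay 236 bases before the start of Plin4, 112 before that of Cidec and 153 before that of Plin1. The hexamer AGGTCA, which nuclear receptors such as PPAR-gamma bind, was found in Aqp7 (49 bases before the start), Plin2 and Plin5, beside 16.3% of all windows. The capitals in the Aqp7 window mark it in its reverse complement. The GC box GGGCGG was found in Plin2, Plin3, Plin5 and Fitm2 (35.7% of all windows) and the E-box CACGTG in Plin2 (7.15%). The direct repeat of that hexamer, with 1 base between the copies, is bound by PPAR-gamma with its partner RXR. This repeat (0.0396% of all windows), TTGCGCAA (0.183%) and TATAAA (13.6%) were in no member's window. The Bscl2 window shown held no match to any of the 7 motifs. RefSeq gives 3 windows for Bscl2 and 2 each for Aqp7, Cidec and Plin5, and only the nearest of each was read for these genes.

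Cxcl12, summed over its 4 exon entries, had 3876, 3673 and 3694 CPM (reads relative to a TMM-normalised library size) in control replicates 1, 2 and 3 and 1423, 1280 and 1163 CPM in ∆CXCL12 replicates 1, 2 and 3. Cxcl12 was thus lower in every ∆CXCL12 library than in any control. Raw reads of all 4 exon entries were lower without overlap, to unequal degrees. Exon 2 had 7752 to 10501 reads in controls and 491 to 830 in ∆CXCL12 libraries. Exon 1 had 3193 to 4647 and 2201 to 2385. Total counts lay between 20133299 and 28009257 per library. The stromal identity of both groups was checked with 10 markers of CXCL12-abundant reticular cells. They summed to between 8701 and 9402 CPM in the controls and between 7379 and 10707 CPM in ∆CXCL12 libraries. These sums include the deleted Cxcl12, so their overlap does not show equal stromal content. The 8 markers other than Cxcl12 and Adipoq had a median log2 fold change of 0.58, ∆CXCL12 over control. Without overlap between the groups, 4 of the 10 markers were higher and Cxcl12 was lower. Markers of other cells were still present. All 10 neutrophil genes were lower without overlap (14288 to 19911 against 2286 to 6681 CPM summed), as were 6 of 8 macrophage genes (2085 to 3259 against 392 to 792), 6 of 8 endothelial genes (87.4 to 128 against 20.3 to 32.6), all 6 B lineage genes (283 to 773 against 65.4 to 204) and all 5 megakaryocyte genes (70.8 to 241 against 5.95 to 13.8). The other macrophage genes, Emr1 (mean 14.6 against 10.1 CPM) and Mrc1 (4.93 against 6.01 CPM), overlapped between the groups. So did the endothelial genes Tek and Flt4. The 6 erythroid genes (1722 to 2824 against 1217 to 4389), 5 osteoblast genes (6622 to 25917 against 10462 to 17485) and 4 muscle genes (3.71 to 4.23 against 1.96 to 6.08) overlapped throughout. Of 12 fat cell genes 5 were higher without overlap and none lower (1244 to 1576 against 2060 to 2808 CPM summed, most of it Adipoq), while Retn and Ucp1 stayed below 1 CPM in every library. Of all 13926 genes tested, 11.7% were higher and 13.9% lower without overlap. The part of these other cells in the results below was not tested, and in bulk libraries a change in the number of cells of a type and a change in RNA per cell cannot be told apart.

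**Figure D1:**
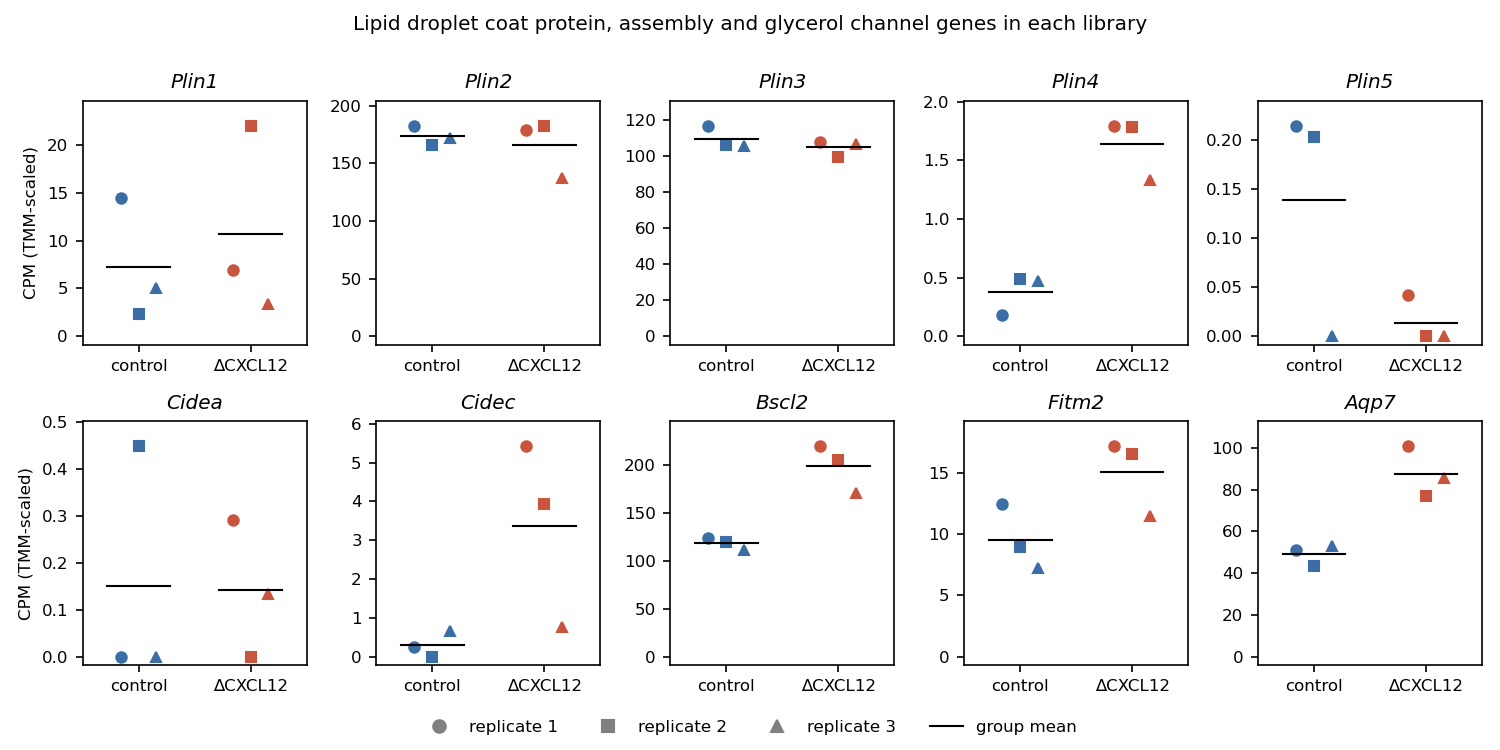
Expression (TMM-scaled CPM, linear axes starting near 0, a different range in each panel) of the 10 genes in 3 control (blue) and 3 ∆CXCL12 (red) libraries, with symbols for replicates and a line at the group mean. The groups are apart at Plin4, Cidec, Bscl2 and Aqp7, with the ∆CXCL12 libraries higher, and overlap at the other 6 genes. Of all genes tested, 11.7% were higher without overlap.

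Aqp7, the glycerol channel gene, had 50.9, 43.4 and 52.8 CPM in control replicates 1, 2 and 3 and 101, 76.8 and 85.6 CPM in ∆CXCL12 replicates 1, 2 and 3. Each ∆CXCL12 library thus exceeded each control library. The means were 49.0 ± 4.96 and 87.7 ± 12.1 CPM (SD, n = 3 each), a 1.79-fold rise with a 95% interval from 1.38-fold to 2.32-fold (log2 fold change 0.84 ± 0.17 SE, adjusted p = 0.026, edgeR). The gene (ENSMUSG00000028427.13) is at 41033074 to 41048139 of chromosome 4 on GRCm38, minus strand, and overlaps no other gene there. Endothelial cells can also carry Aqp7. Of 8 endothelial markers 6 were lower without overlap in ∆CXCL12 libraries, beside 13.9% of all genes tested. The part of endothelial cells in the Aqp7 levels was not tested. Adipoq, the adiponectin gene of fat cells and of CXCL12-abundant reticular cells, had a 1.97-fold rise (adjusted p = 0.038, edgeR). That call held in 1 of 6 refits that left out a library (adjusted p up to 0.18) and was lost with the stromal scaling described below (adjusted p = 0.21).

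Bscl2, the seipin gene, had 124, 120 and 111 CPM in control replicates 1, 2 and 3 and 219, 205 and 171 CPM in ∆CXCL12 replicates 1, 2 and 3. The groups did not overlap. The mean went from 118 ± 6.74 to 198 ± 24.8 CPM (SD, n = 3 each), a 1.68-fold rise with a 95% interval from 1.33-fold to 2.12-fold (log2 fold change 0.75 ± 0.15 SE, adjusted p = 0.027, edgeR). Bscl2 (ENSMUSG00000071657.12) spans 8837467 to 8848683 on the plus strand of chromosome 19, and its exons share 398 bases with Gng3 on the opposite strand and 239 bases with the gene model AC129217.1 on its own strand. The entry for Gng3 held between 0.916 and 2.40 CPM in the 6 libraries, a small fraction of the Bscl2 level. AC129217.1 was not analysed here.

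Of all genes tested, 0.639% were called higher and 3.94% lower (adjusted p below 0.05, edgeR). Among the 10 members 2 were called higher and 0 lower. At an unadjusted p below 0.05, 4 were higher and 0 lower, beside 7.59% and 11.3% of all genes. DESeq2 called 3 higher (2.17% of all genes) and 0 lower, and limma-voom called 2 higher (0.603% of all genes) and 0 lower. The members beyond Aqp7 and Bscl2 in these counts were Plin4 and Cidec, which passed the filter on low counts through the group in which they were high, so their counts give no support. With the filter on low counts lifted so that all 10 genes could be fitted, their median log2 fold change was 0.61, beside 0.00 over all genes. That median lay between the uncalled values of Plin1 (0.56) and Fitm2 (0.66) in the same fit. It includes Plin4 and Cidec and is no support for a shift of the members as a set. The calls of Aqp7 and Bscl2 were fragile to the loss of a library. Without control replicate 1, 2 or 3 the adjusted p of Aqp7 was 0.056, 0.12 and 0.090, and without ∆CXCL12 replicate 1 or 3 it was 0.063 and 0.052. For Bscl2 the adjusted p was 0.055, 0.12 and 0.14 without control replicate 1, 2 or 3, and 0.062 and 0.061 without ∆CXCL12 replicate 1 or 2. Over all 6 refits the log2 fold changes stayed between 0.73 and 0.93 for Aqp7 and between 0.67 and 0.85 for Bscl2.

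The stromal markers were themselves higher in the median. A set of 8 markers of CXCL12-abundant reticular cells (the 10 above without the deleted Cxcl12 and without Adipoq) had a median log2 fold change of 0.58. When the libraries were scaled to these 8 genes, a setting chosen after the data were seen, the median of all genes moved by -0.51 on the log2 scale, to -0.48. On that scale Aqp7 had a log2 fold change of 0.33 (adjusted p = 0.39, edgeR) and Bscl2 one of 0.26 (adjusted p = 0.50, edgeR), so neither was called, with 0.0503% of all genes called higher. Plin2 and Plin3 had log2 fold changes of -0.54 and -0.58 there (adjusted p = 0.19 and 0.12, edgeR), and Plin4 and Cidec ones of 1.64 and 3.05 (adjusted p = 0.22 and 0.12, edgeR).

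**Figure D2:**
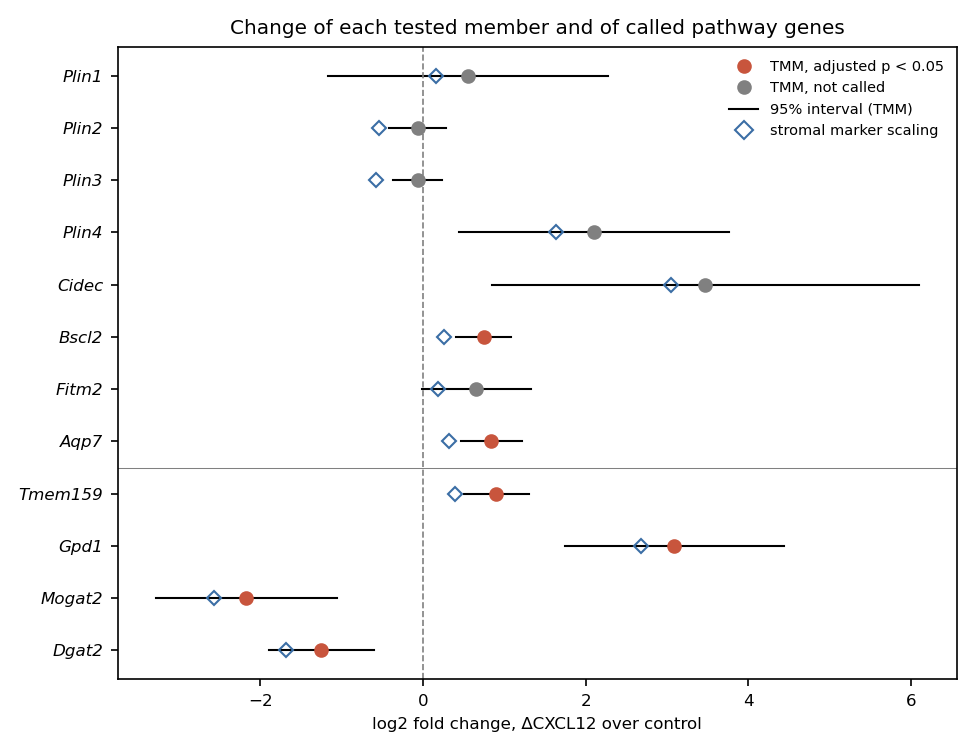
Log2 fold change of ∆CXCL12 over control libraries (horizontal axis) for the 8 members that passed the count filter (above the line) and for 4 called genes of related lists (below it). Circles give the TMM-scaled edgeR fit, red where the adjusted p was below 0.05, black lines its 95% interval, and open diamonds the fit scaled to 8 stromal markers. Aqp7 and Bscl2 have narrow intervals above 0, Plin2 and Plin3 lie near 0 with circles at -0.06, and the diamonds lie to the left of the circles throughout.

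Seipin's partner gene rose with it. Tmem159, which encodes promethin, had 73.3, 76.2 and 52.2 CPM in control replicates 1, 2 and 3 and 125, 120 and 132 CPM in ∆CXCL12 replicates 1, 2 and 3. The groups did not overlap, and the rise was 1.87-fold (log2 fold change 0.90 ± 0.18 SE, adjusted p = 0.024, edgeR). Its adjusted p was 0.069 and 0.092 when control replicates 2 and 3 were left out in turn, 0.056 without ∆CXCL12 replicate 3, and 0.28 with the stromal scaling. The log2 ratio of Tmem159 to Bscl2 was -0.83 ± 0.22 in controls and -0.65 ± 0.24 in ∆CXCL12 libraries (SD, n = 3 each, exact permutation p = 0.6, two-sided). In the list of droplet assembly and other droplet proteins, 13 of 15 genes were tested. Tmem159 was the only 1 called, and it rose, beside 0.639% of all genes called higher. The list had 5 genes higher and 1 lower without overlap, of 15, beside 11.7% and 13.9% of all genes tested. Among the 5 were Mettl7a1, a droplet-targeted methyltransferase-like gene (32.0 against 47.1 CPM, adjusted p = 0.11, edgeR), and Spg20, the spartin gene (53.7 against 75.3 CPM, adjusted p = 0.12, edgeR).

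Fitm2, the gene of the budding factor FIT2, was present at a lower level than Bscl2. It had 12.5, 8.94 and 7.23 CPM in control replicates 1, 2 and 3 and 17.2, 16.6 and 11.5 CPM in ∆CXCL12 replicates 1, 2 and 3. The groups overlapped through control replicate 1 and ∆CXCL12 replicate 3. The log2 fold change was 0.66, with a 95% interval from -0.01 to 1.32 (adjusted p = 0.27, edgeR). The log2 ratio of Bscl2 to Fitm2 was 3.66 ± 0.32 in controls and 3.73 ± 0.14 in ∆CXCL12 libraries (SD, n = 3 each, exact permutation p = 0.9, two-sided). Its exons share 227 bases with the antisense gene 2310001K24Rik, whose own entry held at most 0.541 CPM in a library.

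Plin2 and Plin3, the perilipin genes of most cell types, were the abundant coat genes in both groups. Plin2 had 182, 166 and 172 CPM in control replicates 1, 2 and 3 and 178, 182 and 137 CPM in ∆CXCL12 replicates 1, 2 and 3. ∆CXCL12 replicate 3 was the lowest library, and the other 5 lay close together. With TMM scaling the log2 fold change was -0.06 with a 95% interval from -0.41 to 0.29 (adjusted p = 0.87, edgeR). Changes beyond 1.22-fold up or below 0.75 of the control level fell outside the interval. That range depends on the scaling, since the stromal scaling gave -0.54 (adjusted p = 0.19, edgeR), below the interval.
Plin3 had 117, 106 and 106 CPM in control replicates 1, 2 and 3 and 108, 99.6 and 107 CPM in ∆CXCL12 replicates 1, 2 and 3. The groups overlapped, and the spread within each was small. Its log2 fold change was -0.06 with a 95% interval from -0.37 to 0.24 (adjusted p = 0.85, edgeR). The stromal scaling gave Plin3 -0.58 (adjusted p = 0.12, edgeR), also below its interval.

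Aqp7 and Bscl2 were also expressed relative to Plin2 within each library. The log2 ratio of Aqp7 to Plin2 was -1.82 ± 0.12 in controls and -0.92 ± 0.29 in ∆CXCL12 libraries (SD, n = 3 each), and that of Bscl2 to Plin2 was -0.55 ± 0.08 and 0.26 ± 0.08. Since Plin2 had a log2 fold change near 0, the differences of 0.91 and 0.81 restate the fold changes of the 2 genes and are no separate support for them. The groups did not overlap at either ratio (exact permutation p = 0.1, two-sided, the smallest that 3 against 3 allows, and adjusted p = 0.225 over the 9 ratios compared). Both ratios and that of Tmem159 to Bscl2 were chosen after the values were seen, and the other 6 were planned. The groups also did not overlap at the planned ratios of Plin4 to Plin3 and Cidec to Plin2 (exact permutation p = 0.1 each, two-sided, adjusted p = 0.225). Plin4 and Cidec passed the filter on low counts only through the group in which they were high. With Plin2 and Plin3 near 0 in log2 fold change, these ratios restate the low counts of Plin4 and Cidec and are no separate support.

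Plin1, the main coat gene of mature fat cells, varied more within the groups than between them. It had 14.5, 2.36 and 5.01 CPM in control replicates 1, 2 and 3 and 6.87, 21.9 and 3.33 CPM in ∆CXCL12 replicates 1, 2 and 3. Control replicate 1 and ∆CXCL12 replicate 2 stood above the other 4 libraries. The log2 fold change was 0.55 with a 95% interval from -1.17 to 2.28 (adjusted p = 0.76, edgeR), and it was 1.53 without control replicate 1 and -0.51 without ∆CXCL12 replicate 2. The 5 osteoblast markers were set beside Plin1 after the values were seen. Col1a1 (collagen I), Bglap (osteocalcin) and Sp7 (osterix) were also highest in these 2 libraries, while Ibsp (bone sialoprotein) and Spp1 (osteopontin) were highest in control replicate 1 and ∆CXCL12 replicate 1. Col1a1 had 9819, 2123 and 1249 CPM in the controls and 1519, 7055 and 1420 CPM in ∆CXCL12 libraries, in replicate order. Bglap had 56.0, 17.0 and 6.0 CPM in the controls and 15.3, 34.3 and 5.15 CPM in ∆CXCL12 libraries, in the same order. Ibsp had 3323, 1082 and 730 CPM in the controls and 3127, 2320 and 2377 CPM in the ∆CXCL12 group. The differences among libraries were smaller for Sp7 (138, 93.3 and 109 CPM, then 69.9, 111 and 96.3) and Spp1 (12581, 6690 and 4528 CPM, then 7979, 7964 and 6563). Some of the other droplet genes were also highest in control replicate 1 and ∆CXCL12 replicate 2. Examples, likewise picked after the values were seen, were the lipase gene Pnpla2 and the triglyceride supply gene Lpin1. Others, such as Dgat2 and Mogat2, were not. The pattern of Plin1 was thus not particular to osteoblast markers. The part of osteoblast content in the Plin1 levels was not tested.

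**Figure D3:**
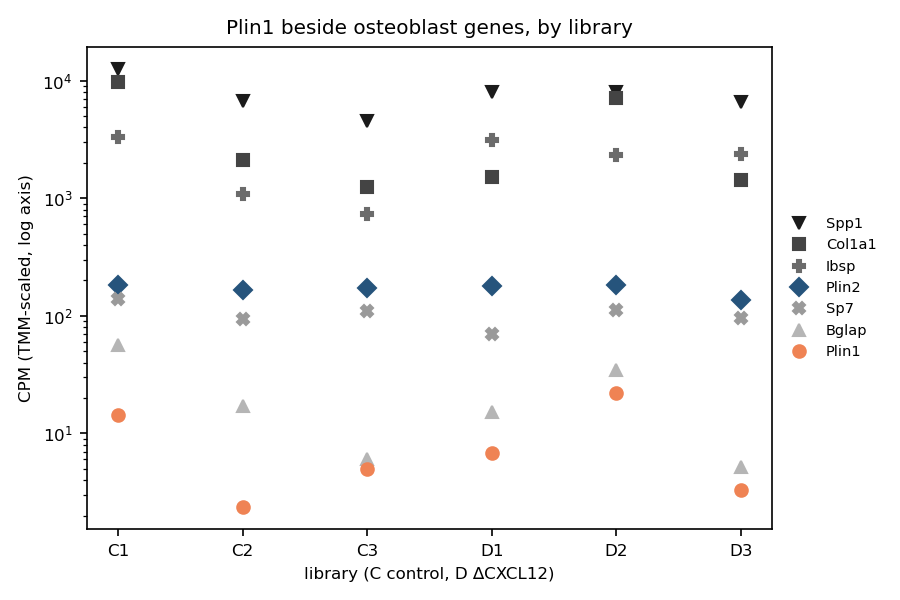
TMM-scaled CPM (log axis) of Plin1, of the 5 osteoblast markers and, for comparison, of Plin2 in control libraries C1 to C3 and ∆CXCL12 libraries D1 to D3. Plin1, Col1a1, Bglap and Sp7 are highest in C1 and D2, where Plin1 had 14.5 and 21.9 CPM, Ibsp and Spp1 are highest in C1 and D1, and Plin2 lies between 137 and 182 CPM in all 6.

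Plin4, a coat gene of fat and muscle cells, was near the limit of detection in controls and higher in every ∆CXCL12 library. It had 5, 12 and 10 reads (0.178, 0.488 and 0.472 CPM) in control replicates 1, 2 and 3 and 43, 41 and 30 reads (1.79, 1.79 and 1.33 CPM) in ∆CXCL12 replicates 1, 2 and 3. The groups did not overlap, and the lowest ∆CXCL12 library was well above the highest control. The log2 fold change was 2.10 with a 95% interval from 0.44 to 3.76, and the call was not made (adjusted p = 0.16, edgeR, and adjusted p = 0.096, DESeq2). Summed over libraries, the reads gave a ratio of 4.48 with an exact 95% interval from 2.93 to 7.10 that covers counting error only. Plin4 lies on the minus strand of chromosome 17, from 56100591 to 56109803, with 1797 bases between it and Plin5. Its exons share 17 bases with Hdgfl2 on the opposite strand, whose entry (under the older symbol Hdgfrp2) held between 102 and 133 CPM in the 6 libraries. With the strand setting of the counting not given, how many of the few Plin4 reads came from that overlap was not tested.

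Cidec, the droplet fusion gene of white fat cells, was low in controls and uneven among ∆CXCL12 libraries. It had 7, 0 and 14 reads (0.250, 0 and 0.661 CPM) in control replicates 1, 2 and 3 and 130, 90 and 17 reads (5.41, 3.92 and 0.755 CPM) in ∆CXCL12 replicates 1, 2 and 3. ∆CXCL12 replicate 3 lay just above control replicate 3, and the other 2 ∆CXCL12 libraries lay far above all controls. The 0 reads of control replicate 2 allow up to 0.124 CPM before TMM scaling. The log2 fold change was 3.47 with a 95% interval from 0.85 to 6.10 (adjusted p = 0.14, edgeR), and DESeq2 called it higher (adjusted p = 0.017). Its edgeR adjusted p was lowest, at 0.091, without ∆CXCL12 replicate 3. The summed reads gave a ratio of 12.0 with an exact 95% interval from 7.66 to 19.7, for counting error only. Plin4 and Cidec passed the filter on low counts through their reads in the ∆CXCL12 libraries. Of 9 fat cell genes tested, 3 were called higher (Adipoq, Slc2a4 and Cfd), beside 0.639% of all genes. Slc2a4 had 7.10, 10.4 and 14.6 CPM in the controls and 29.7, 50.1 and 31.4 CPM in ∆CXCL12 libraries (adjusted p = 0.017, edgeR). Cfd (adipsin) had 1.82, 0.813 and 0.614 CPM in the controls and 10.6, 6.02 and 3.29 CPM in ∆CXCL12 libraries (adjusted p = 0.047, edgeR). Within the ∆CXCL12 group Cfd was highest in replicate 1, as Cidec was, and Slc2a4 in replicate 2. The call of Cfd held in 2 of 6 refits that left out a library (adjusted p up to 0.20) and was lost with the stromal scaling (adjusted p = 0.054).

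Plin5 and Cidea, typical of oxidative and brown fat cells, were close to absent and did not pass the filter. Plin5 had 6, 5 and 0 reads in control replicates 1, 2 and 3 and 1, 0 and 0 reads in ∆CXCL12 replicates 1, 2 and 3. The summed reads, 11 against 1, gave a ratio of control to ∆CXCL12 libraries of 10.4 with an exact 95% interval from 1.51 to 446, for counting error only. Cidea had 0, 11 and 0 reads in controls and 7, 0 and 3 reads in ∆CXCL12 libraries, in replicate order, so all 11 control reads came from 1 library. Its ratio was 0.97 with an exact 95% interval from 0.37 to 2.50. Fitted without the filter, neither was called. Ucp1, the brown fat uncoupling gene, had at most 0.0945 CPM in a library.

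Within the mix of perilipins, the share of Plin4 was higher in every ∆CXCL12 library than in any control, and the shares of the other 4 overlapped. Each perilipin was expressed per length (reads per base of merged exons in GENCODE M21) and as a share of the 5 together. Plin2 made up 60.4%, 62.2% and 62.7% in control replicates 1, 2 and 3 and 62.7%, 62.3% and 57.2% in ∆CXCL12 replicates 1, 2 and 3. Plin3 made up 36.2% ± 0.632 and 36.03% ± 4.94 in the 2 groups (SD, n = 3 each). Plin1 accounted for between 0.667% and 3.62% in controls and between 1.05% and 5.67% in ∆CXCL12 libraries. Plin4 took 0.0360%, 0.111% and 0.105% in controls and 0.382%, 0.372% and 0.338% in ∆CXCL12 libraries, without overlap (exact permutation p = 0.1, two-sided, adjusted p = 0.5 over 5 shares). Plin4 passed the filter on low counts only through the group in which it was high. Plin2 and Plin3, most of the mix, had log2 fold changes near 0 with TMM scaling. The Plin4 share thus restates its few reads and is no separate support for a rise. Plin5 had at most 0.128% in a control library and 0.0246% in a ∆CXCL12 one.

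**Figure D4:**
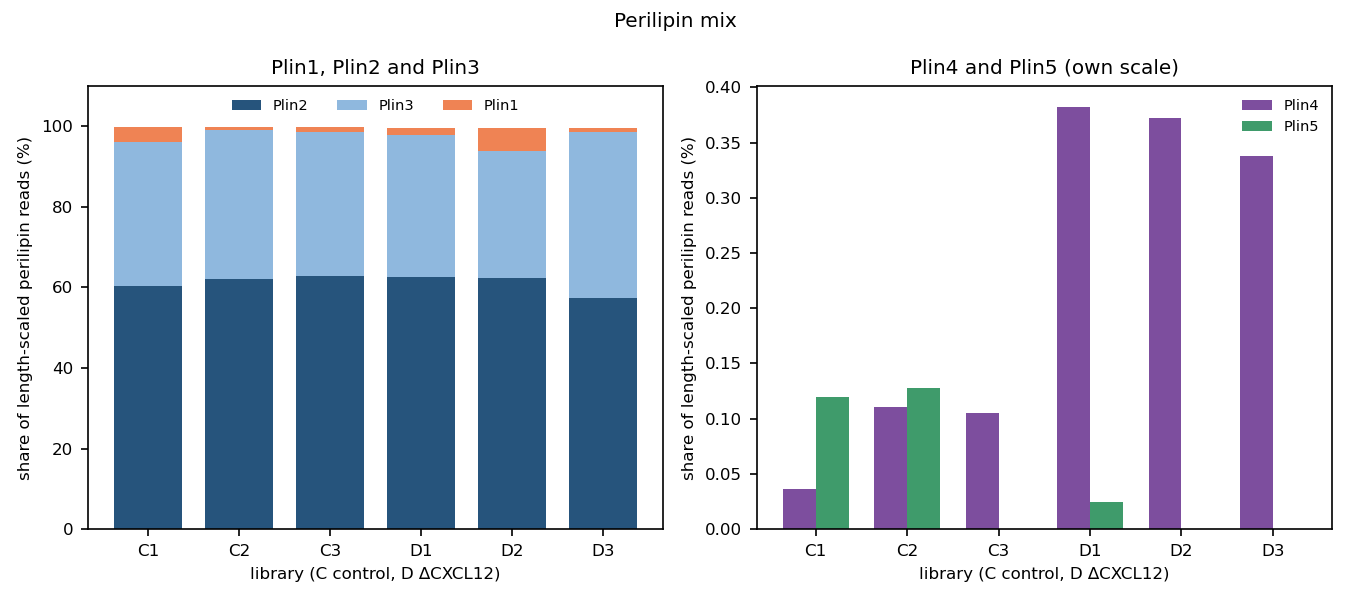
Share of each perilipin in the summed length-scaled reads of Plin1 to Plin5 (percent, vertical axes) in control libraries C1 to C3 and ∆CXCL12 libraries D1 to D3. On the left, Plin2 takes between 57.2% and 62.7% of each bar and Plin3 most of the rest. On the right, on its own scale, Plin4 is higher in D1 to D3 than in C1 to C3, and Plin5 has bars in C1, C2 and D1 alone.

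Between genes, levels per length (CPM per kilobase of merged exons) fell into 3 tiers in controls. Plin2 led with 49.3 ± 2.28, followed by Plin3 (28.9 ± 1.61), Bscl2 (20.04 ± 1.14) and Aqp7 (17.3 ± 1.76), and no neighbours among these overlapped. Fitm2 (2.41 ± 0.677) and Plin1 (1.56 ± 1.37) overlapped each other, and Cidec, Cidea, Plin5 and Plin4 had means of at most 0.164, overlapping one after the other. In ∆CXCL12 libraries Bscl2 (33.7 ± 4.20) and Aqp7 (31.0 ± 4.28) stood above Plin3 (27.7 ± 1.19) in mean level, with overlap between Bscl2 and Aqp7 and between Aqp7 and Plin3. Plin2 was again the highest, at 47.3 ± 7.12, and its libraries stayed above those of Bscl2. The order between genes depends on the length used. Merged exons of Bscl2 cover 5897 bases against 3495 in its longest transcript, and those of Plin3 cover 3786 against 3645. The place of Bscl2 beside Plin3 in either group may thus differ with another length. The order by longest transcript was not computed.

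Of the 44 other droplet genes found, in 4 lists, 2 rose and 2 fell (edgeR). Those that rose were 5.13% of the 39 tested, beside 0.639% of all genes, and those that fell were also 5.13%, near the 3.94% of all genes. Tmem159, described above, was 1 of those that rose, and the other was Gpd1, the enzyme gene that supplies the glycerol backbone of triglyceride. Gpd1 had 5.25, 3.09 and 9.54 CPM in control replicates 1, 2 and 3 and 54.8, 81.1 and 16.03 CPM in ∆CXCL12 replicates 1, 2 and 3. The groups were apart. The lowest of the ∆CXCL12 group was replicate 3, as it was for Plin1, Plin2, Plin4, Cidec, Bscl2 and Fitm2, so this order was not particular to Gpd1. The rise of Gpd1 was 8.52-fold (adjusted p = 0.023, edgeR).
The 2 genes that fell were Mogat2 and Dgat2. Mogat2, which acylates monoacylglycerol, had 20.5, 28.7 and 22.8 CPM in the controls and 3.37, 10.2 and 2.44 CPM in ∆CXCL12 libraries, in replicate order (log2 fold change -2.17 ± 0.49 SE, adjusted p = 0.042, edgeR). Dgat2, which makes triglyceride from diacylglycerol, had 97.6, 88.4 and 104 CPM in the controls and 36.4, 60.5 and 25.1 CPM in ∆CXCL12 libraries, in the same order (log2 fold change -1.25 ± 0.29 SE, adjusted p = 0.044, edgeR). In both genes ∆CXCL12 replicate 2 was the highest of its group and still below every control. Its partner enzyme gene Dgat1 had 147 ± 10.9 and 127 ± 29.6 CPM (SD, n = 3 each, adjusted p = 0.62, edgeR). Neutrophil markers and 6 of 8 macrophage markers were lower in the same libraries as Mogat2 and Dgat2, and their part was not tested. The macrophage genes Emr1 and Mrc1 overlapped between the groups. Gpd1 was called only without ∆CXCL12 replicate 3 (adjusted p = 0.0076), and Mogat2 and Dgat2 only without ∆CXCL12 replicate 2 (adjusted p = 0.012 and 0.017, edgeR). In the other refits that left out 1 library, the adjusted p of these 3 genes lay between 0.061 and 0.17. With the stromal scaling Gpd1 had an adjusted p of 0.055, and Mogat2 and Dgat2 had 0.023 and 0.024 (edgeR).

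The lipases that act on the coated droplet did not show a called change. Of 9 genes of droplet lipases and their regulators 8 were tested, and 0 were called by edgeR, DESeq2 or limma-voom. Of all genes, edgeR called 0.639% higher and 3.94% lower, so 0 calls among so few genes say little. At an unadjusted p below 0.05 the list had 0 higher and 1 lower, beside 7.59% and 11.3% of all genes. Pnpla2, the gene of adipose triglyceride lipase, had 79.8 ± 18.04 CPM in the controls and 87.0 ± 35.0 CPM in ∆CXCL12 libraries (SD, n = 3 each), with a log2 fold change of 0.12 with a 95% interval from -0.54 to 0.79. G0s2, the gene of its inhibitor, had 106 ± 22.9 and 105 ± 7.97 CPM, with an interval from -0.42 to 0.41. Abhd5, encoding the activator that PLIN1 holds back on the droplet, had 78.8 ± 2.85 and 93.1 ± 12.5 CPM (adjusted p = 0.45, edgeR).

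No other channel or glycerol kinase gene was called with Aqp7. Of 6 genes in that list 5 were tested, and 0 were called by edgeR, DESeq2 or limma-voom. With 0.639% of all genes called higher and 3.94% lower by edgeR, 0 calls among so few genes say little. At an unadjusted p below 0.05 the list had 0 genes, beside 7.59% of all genes higher and 11.3% lower. Aqp1, the water channel of endothelium and red cells, had 218 ± 37.9 CPM in the controls and 190 ± 81.9 CPM in ∆CXCL12 libraries (SD, n = 3 each), with a 95% interval of the log2 fold change from -0.88 to 0.49. Aqp9, another glycerol channel, had 15.9 ± 2.46 and 11.2 ± 6.24 CPM. Gyk, the glycerol kinase gene, had 15.3 ± 6.65 and 17.8 ± 2.68 CPM. Aqp3 had at most 1.34 CPM in a library.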

How the data were processed

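The deposited table of whole-number counts per gene was used as the authors left it, not normalized, with 17131 entries, of which the 4 of Cxcl12 were summed. The submitters' processing notes name TopHat2 2.0.13, Bowtie2 2.2.1, HTSeq, Cufflinks and DESeq2 and the build mm10, without roles. Which annotation was counted, whether strand was used and how shared reads were treated is not given in the sources used here. Counts of overlapping genes are therefore uncertain. The authors also deposited regularized log2 values, used for 1 alternative, and size-factor-scaled counts, not used.

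Libraries were grouped by the genotype label. The labels give no replicate numbers, and those used here only name libraries. Genes passing filterByExpr (minimum count 10, minimum total count 15) were compared with edgeR 4.0.16 (R 4.3.3), quasi-likelihood test with robust shrinkage, with TMM factors and Benjamini-Hochberg adjustment over all 13926 genes, threshold 0.05. Standard errors and 95% intervals came from its F statistic. Ratios (0.5 counts added) and shares were compared by exact permutation. The fit was checked on simulated counts in which 200 genes changed. Alternatives were other scalings, filters, DESeq2 1.42.0, limma-voom 3.58.1 and leaving out each library.

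The members and gene lists were chosen with earlier results of these data known. Of 46 other droplet genes listed, 44 were found. The naming rule took every member, up to 4 called genes per list, or its 2 most abundant where none was called. Mettl7a1, Spg20, Dgat1, Pnpla2, Lpin1, Aqp3, Aqp9, Cav1 and Lpl were named after their values were seen. So were the fat cell genes Adipoq, Cfd and Slc2a4. Marker lists covered fat, CXCL12-abundant reticular, endothelial, macrophage, neutrophil, B lineage, erythroid, megakaryocyte, osteoblast and muscle cells. Coordinates are from GENCODE M21 (GRCm38), which may differ from the authors' annotation.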

Additional observations from a re-analysis of the deposited data

How the results depend on the processing

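With other scalings (DESeq2 size factors, upper quartile), filters, no robust shrinkage, DESeq2, limma-voom and limma on the deposited log2 values, Aqp7 and Bscl2 stayed called. Among all members these settings changed 1 other call, that of Cidec by DESeq2. An adjusted p below 0.01 left 0 members called higher, 0 other droplet genes higher, 0 lower, and 1 of all genes higher and 79 lower. The stromal scaling left 0 members and 0 other droplet genes higher, and called 7 of all genes higher and 1516 lower. DESeq2 called 302 higher and 989 lower, against 89 and 548 with edgeR. Limma-voom called 1 other droplet gene higher. Leaving out 1 library gave 0 to 1 members called higher, 0 to 1 other droplet genes higher, 0 to 2 lower, and 0 to 76 of all genes higher and 74 to 530 lower. The lowest counts came without control replicate 3 (0 higher, 74 lower) and control replicate 2 (6 higher, 154 lower). Limma on the deposited log2 values, which are shrunk, gave Cidec 0.46 and Plin4 0.20.

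Signs that turned when 1 library was left out all belonged to uncalled differences (∆CXCL12 minus control), and the cause was not tested. Without ∆CXCL12 replicate 2 the log2 fold change of Plin1 was -0.51 (range over the 6 refits to 1.53), its share of the perilipin mix differed by -0.454 percentage points (to 1.86) and its log2 ratio to Plin2 by -0.067 (to 1.24). Without ∆CXCL12 replicate 3 the log2 fold change of Plin2 was 0.059 (from -0.13), and its share differed by 0.745 (from -1.96). The ratios of Aqp7 to Plin1 and Bscl2 to Fitm2 turned without ∆CXCL12 replicate 3 (-0.30 and -0.011) and without control replicate 1 (-0.34 and -0.11), and reached 1.14 and 0.21 in other refits. The share of Plin3 differed by between -2.82 and 2.05, turning without ∆CXCL12 replicate 1 (0.300) or 2 and without control replicate 2 (0.207). No paired analysis was possible because the labels give no replicate numbers. Plin5 and Cidea had at most 11 reads in a library, so a few reads set their values.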

Other observations

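Cav1, the caveolin gene of fat cell and endothelial caveolae, which also reaches droplets, had 33.8, 10.6 and 31.2 CPM in control replicates 1, 2 and 3 and 11.5, 2.70 and 0.932 CPM in ∆CXCL12 replicates 1, 2 and 3. The groups overlapped through control replicate 2 and ∆CXCL12 replicate 1, and the log2 fold change of -2.31 was not called (adjusted p = 0.15, edgeR). Of 8 endothelial markers 6 were also lower without overlap in the ∆CXCL12 group, and their part was not tested. Lpl, the lipoprotein lipase gene that brings fatty acids into cells, was the most abundant of the 44 other droplet genes. It had 2743, 4190 and 5492 CPM in controls and 7687, 4862 and 9473 CPM in ∆CXCL12 libraries, in replicate order, with overlap between the groups (adjusted p = 0.20, edgeR).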
